A study of Rattus norvegicus with 6 samples.

Results

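The genes described here encode neurotrophins, GDNF and their receptors. They were taken by name from the deposited gene table and are 8 of its 30957 genes. The 3 ligands are Bdnf, Ntf3 and Gdnf, and the 5 receptors are Ntrk2, Ntrk3, Ngfr, Gfra1 and Ret. All 8 genes had counts, and 6 of them had enough counts to be tested for a difference between BCP and sham-operated rats. The test compared how much RNA of each gene the ipsilateral lumbar spinal cord held on day 14 after tumor inoculation.

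The libraries came from female Wistar rats, 3 with bone cancer pain (BCP) and 3 sham-operated. BCP rats carried living Walker 256 cells, a rat mammary carcinoma line, in the medullary cavity of the left tibia, whereas the sham operation placed Walker 256 cells killed by heat at the same site. RNA was taken from the whole ipsilateral side of the lumbar enlargement after removal of the meninges, so that dorsal horn, ventral horn and white matter contributed to each library. The tumor itself lay in the bone and was not sequenced. The labels do not say whether each library held 1 rat, so p-values measure the spread between these libraries. Counts on genes ranged from 11779485 to 15004290 per library, and within a group the libraries varied with a biological coefficient of variation of 7.72%. Counts scaled to library size with TMM are given as CPM, which serve for comparing a gene between libraries. Levels of different genes are compared as FPKM, the authors' value per kilobase of transcript. A gene is said to have risen or fallen when its adjusted p was under 0.05 over all 14908 genes tested by edgeR's quasi-likelihood test, and fold changes over 2 are named apart.

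Neurotrophins are secreted growth factors made as longer precursors. BDNF binds the receptor tyrosine kinase TrkB, encoded by Ntrk2, and NT-3, encoded by Ntf3, binds TrkC, encoded by Ntrk3. Ngfr encodes the p75 receptor, which binds all neurotrophins and, with sortilin, their precursors. GDNF binds the membrane-anchored co-receptor encoded by Gfra1, and the complex then activates the kinase Ret. In the spinal cord BDNF is known as a modulator of nociceptive transmission in the dorsal horn, and GDNF and NT-3 are known for supporting motor neurons and proprioceptive neurons. Ntrk2 is also known for a truncated form without the kinase, abundant in astrocytes, which counts per gene do not separate from the full-length form.

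The receptors of the Trk and GDNF systems were far more abundant than p75 and the ligands. Ntrk2 had the highest level of the 8 genes, with 58.3 ± 2.01 FPKM in sham and 51.6 ± 1.49 FPKM in BCP (SD, n = 3), and its mean over all libraries exceeded that of 91.8% of the tested genes. Ret followed with 30.7 ± 0.841 and 34.4 ± 1.37 FPKM, Gfra1 with 28.4 ± 2.12 and 29.7 ± 0.292, and Ntrk3 with 23.2 ± 1.04 and 20.3 ± 0.721. Ngfr, at 1.45 ± 0.338 FPKM in sham and 2.24 ± 0.404 FPKM in BCP, and Bdnf, at 0.962 ± 0.236 and 1.17 ± 0.197, formed a lower tier. Gdnf and Ntf3 were lowest, with mean levels over all libraries of 0.480 and 0.216 FPKM. The ranges of Ret and Gfra1 overlapped in sham, as did those of Bdnf and Gdnf, and those of Gdnf and Ntf3 overlapped in BCP. The other neighbors in this order had separate ranges in both groups. FPKM depends on the annotated length, and the deposited values imply a length of 13143 bases for Ntrk2 and of only 700 bases for Gdnf.

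**Figure D1:**
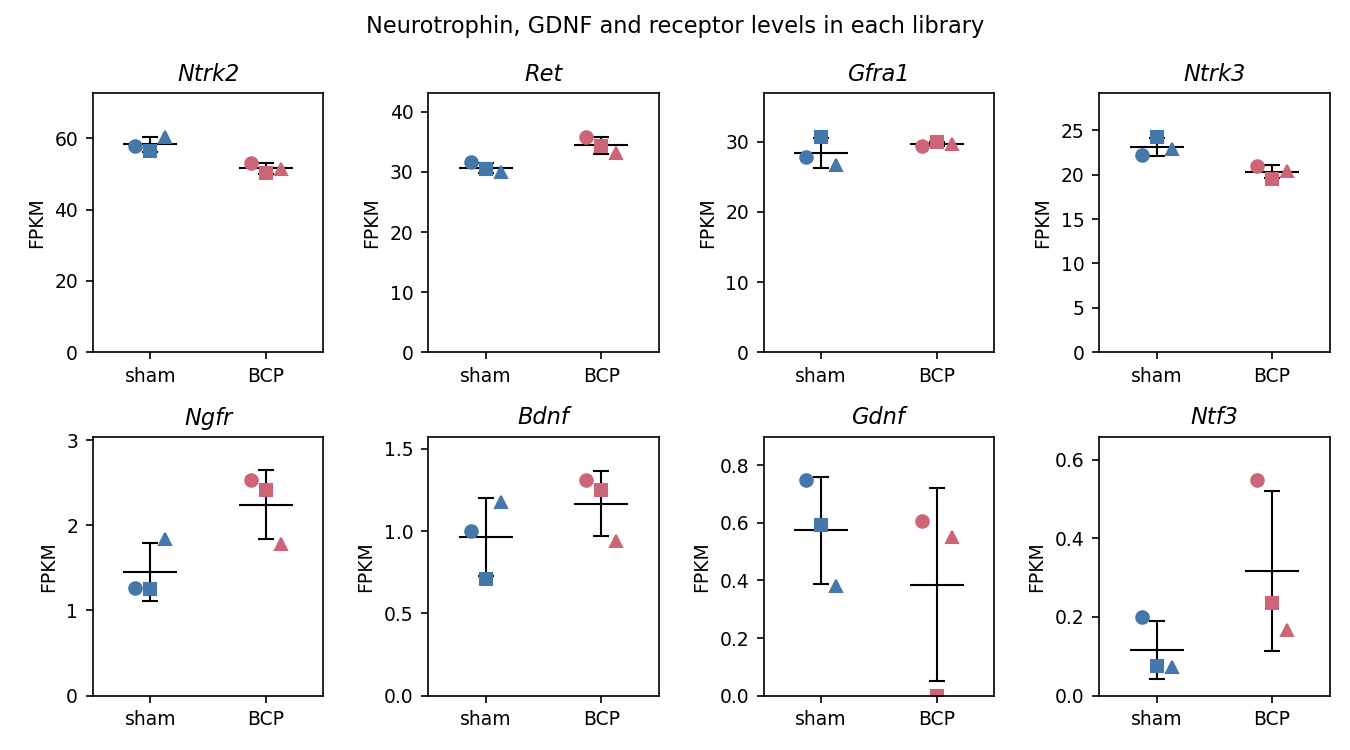
FPKM of the 8 genes in each library, 1 panel per gene in the order of their levels, with a vertical axis that starts at 0 in each panel. Circles, squares and triangles are libraries 1, 2 and 3 of the sham (blue) and BCP (red) groups, and black lines give the mean and SD of 3 libraries. The BCP libraries lie below the sham libraries for Ntrk2 and Ntrk3 and above them for Ret, and the groups overlap for the other 5 genes.

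Both Trk receptors fell in the BCP libraries, by a similar and small amount. Ntrk2, on chromosome 17 (5933729 to 6244676, Rnor_6.0), stood at 774, 752 and 806 CPM in sham libraries 1, 2 and 3, against 696, 648 and 664 CPM in BCP libraries 1, 2 and 3. Each BCP library was thus below each sham library. The log2FC was -0.22 (standard error 0.04, 95% interval -0.31 to -0.13, adjusted p = 0.000708), so the fitted level fell by 13.9%. At least 8226 counts lay behind each of these values. Fewer cells of a type and less RNA per cell cannot be told apart in these bulk samples.

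Ntrk3, on chromosome 1 (139890560 to 140262503), stood at 79.2, 85.8 and 81.0 CPM in sham, against 72.9, 67.1 and 70.1 CPM in BCP. Its groups did not overlap either. The log2FC of -0.23 (standard error 0.06, 95% interval -0.35 to -0.10) had an adjusted p of 0.00635, and the fitted level fell by 14.6%. Of all tested genes 12.1% fell at this threshold, 15.8% rose and 27.9% did either, and for 41.4% the libraries of the groups did not overlap. Among the 6 tested genes of the neurotrophin and GDNF systems 2 fell, 1 rose and 3 did not pass, and 3 had groups that did not overlap. None changed by more than 2-fold, against 6.35% of all tested genes that were more than 2-fold higher, 0.107% more than 2-fold lower and 6.45% in either direction. Their median log2FC was 0.08, against -0.01 over all tested genes.

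The ratio of Ntrk2 to Ntrk3 within a library does not depend on how libraries are scaled. By FPKM the sham libraries gave 2.59, 2.33 and 2.64, and the BCP libraries gave 2.53, 2.57 and 2.51. The BCP values lay inside the sham range, and the mean log2 ratio differed by 0.01 (exact permutation test, two-sided, p = 1, where 3 against 3 libraries cannot go below 0.1).

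Ngfr, the p75 receptor gene, was the only one of the 8 that rose. It lies on chromosome 10 (83389847 to 83408061) and its sham libraries held 55, 59 and 90 counts, whereas its BCP libraries held 97, 108 and 75. As normalized counts these were 4.19, 4.12 and 6.08 CPM against 8.20, 7.72 and 5.68 CPM. Sham library 3 was above BCP library 3, so the groups overlapped, although the other 2 libraries of each group were well apart. The log2FC was 0.58 (standard error 0.20, 95% interval 0.15 to 1.00, adjusted p = 0.0386), a 1.49-fold higher fitted level. The call was lost without sham library 1 (adjusted p = 0.124), sham library 2 (0.154), BCP library 1 (0.119) or BCP library 2 (0.128), and with DESeq2 (0.0706). With log2FC between 0.48 and 0.79 in the fits that left out a library, the direction stayed the same.

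Ret and Gfra1, which together form the GDNF receptor, did not pass the threshold. Ret, on chromosome 4 (150202058 to 150244372), stood at 180.0, 172 and 169.7 CPM in sham, against 199.6, 188 and 182 CPM in BCP. Every BCP library was above every sham library, the lowest BCP value by little. The log2FC was 0.13 (standard error 0.05, 95% interval 0.02 to 0.23), and the adjusted p of 0.0612 missed the threshold. It was under the threshold when libraries were scaled by their size only (log2FC 0.17, adjusted p = 0.0115) and in 3 more of its 14 alternatives. Gfra1, on chromosome 1 (279207586 to 279277339), stood at 84.5, 92.7 and 80.4 CPM in sham, against 87.3, 88.0 and 86.9 CPM in BCP. The BCP values lay within the sham range, and the log2FC of 0.03 had a 95% interval from -0.10 to 0.15 (adjusted p = 0.797). The ratio of Gfra1 to Ret by FPKM was 0.881, 1.01 and 0.889 in sham against 0.821, 0.876 and 0.896 in BCP, with overlapping groups (exact permutation test, two-sided, p = 0.4).

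**Figure D2:**
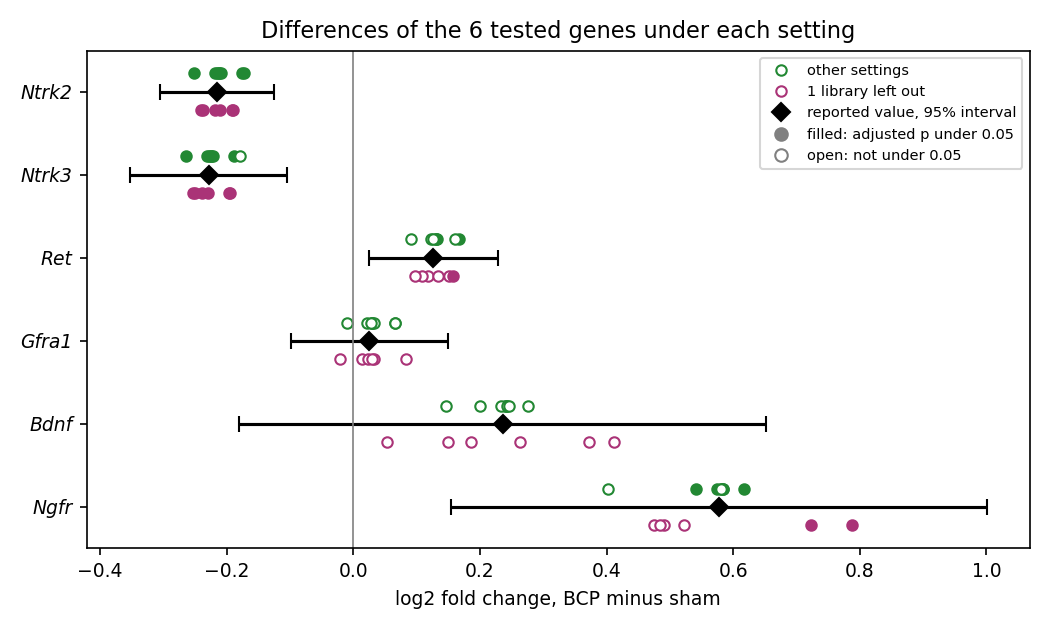
Log2 fold change of BCP over sham for the 6 tested genes (horizontal axis), with the reported value and its 95% interval as black diamonds and bars. Circles are the same value under 8 other settings (green) and with 1 library left out (purple), filled where the adjusted p was under 0.05. Ntrk2 is filled throughout, Ngfr is open in 4 of its 6 fits with a library left out, and Bdnf and Gfra1 are open throughout.

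The ligands were rare and none of them passed a test. Bdnf, on chromosome 3 (100768637 to 100819210), was read 83, 64 and 110 times in sham, against 96, 107 and 76 times in BCP. After scaling this came to 6.33, 4.47 and 7.43 CPM against 8.12, 7.65 and 5.76 CPM, with overlapping groups. Its log2FC of 0.24 had a standard error of 0.20 and a 95% interval from -0.18 to 0.65 (adjusted p = 0.426). Ntf3, on chromosome 4 (158636884 to 158705886), was read 5, 2 and 2 times in sham, against 12, 6 and 4 times in BCP. The groups overlapped, since BCP library 3 had fewer counts than sham library 1, and the gene was too rare to pass the filter. Without that filter its log2FC was 1.37 with an adjusted p of 0.184. Gdnf, on chromosome 2 (56887987 to 56910238), was read 7, 6 and 4 times in sham, against 5, 0 and 5 times in BCP. It was too rare as well, and the 0 in BCP library 2 allows a level of up to 0.214 CPM, the worth of 3 counts in that library (counting error only). The ratio of Bdnf to Ntf3 by FPKM was 4.96, 9.56 and 16.4 in sham against 2.39, 5.33 and 5.67 in BCP, resting on the few Ntf3 counts, and the groups overlapped (exact permutation test, two-sided, p = 0.3).

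Bdnf is transcribed from several alternative starts, which counts per gene add together, and it is known as an activity-induced gene regulated through a cAMP response element. Stretches of a pair of ligand promoters are shown for that reason. RefSeq (GRCr8) promoter sequences were found for 5 of the 8 genes, with 6 starts listed for Bdnf. The half-site TGACG was searched on both strands in the 250 bases before each start, and the full element TGACGTCA, which contains it, likewise. The half-site was present before 1 of the 6 Bdnf starts and before the Gdnf start, and not in the windows of Ntf3, Gfra1 and Ret, whereas 18.2% of all 33469 listed promoters hold it. The full element was in none of these windows and in 1.59% of all promoters. Only its exact letters were searched, so variants were not counted. The Bdnf stretch below reads TCACGTCA at its half-site. The Bdnf stretch lies at chr3:116637798-116637852 and the Gdnf stretch at chr2:58621253-58621307, both on the plus strand of GRCr8, and capitals mark the half-site, read on the opposite strand.
Bdnf: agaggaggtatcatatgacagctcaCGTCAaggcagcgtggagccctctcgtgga
Gdnf: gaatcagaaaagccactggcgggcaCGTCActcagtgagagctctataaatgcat
A match is a description of the letters only. Bdnf did not pass the test between the groups, and Gdnf was too rare to be tested.

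Of 15 tested activity-regulated and BDNF-induced genes 3 rose and 1 fell, close to the 15.8% and 12.1% of all tested genes, and the median log2FC was -0.01. Junb, a subunit of AP-1, rose from 8.03 ± 0.835 to 18.3 ± 1.18 CPM (SD, n = 3, log2FC 1.19, adjusted p = 5.00e-07). Dusp6, a phosphatase of ERK, rose with a log2FC of 0.82 (adjusted p = 1.66e-06), and Egr2, with 2 to 12 counts in the sham and 14 to 22 in the BCP libraries, with 1.35 (adjusted p = 0.0315). Egr2 was lost without sham library 2 or 3 or BCP library 2 or 3 (adjusted p up to 0.163), so that 2 of the list rose in these fits. Arc, an activity-regulated synaptic protein, fell from 14.2 ± 1.56 to 8.95 ± 0.733 CPM (log2FC -0.67, adjusted p = 0.00081). Fos (log2FC 0.09, adjusted p = 0.633) and Egr1 (0.13, adjusted p = 0.652) did not pass.

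Co-receptors and related receptors were lower where they passed the test. Of 10 tested receptors and co-receptors 5 fell and none rose, against 12.1% and 15.8% of all tested genes, and the median log2FC was -0.21. Sort1, which encodes sortilin, the partner of p75 in binding pro-neurotrophins, fell from 775 ± 12.9 to 643 ± 19.0 CPM (SD, n = 3, log2FC -0.27, standard error 0.04, adjusted p = 4.25e-05). Sorcs2, of the same family and also known to pair with p75, fell from 60.7 ± 4.39 to 45.0 ± 3.57 CPM (log2FC -0.43, adjusted p = 0.00021). Sdc3, a heparan sulfate proteoglycan that binds GDNF, and Ncam1, which can act as a GDNF receptor without Ret, fell with log2FC of -0.31 and -0.16 (adjusted p = 2.10e-05 and 0.00584). Lingo1, a co-receptor in p75 complexes, fell with a log2FC of -0.22 (adjusted p = 0.0418). Sort1, Sorcs2 and Sdc3 passed in all 15 settings tried, Ncam1 in 13, with the exception of limma and of the fit without sham library 3 (adjusted p up to 0.0920), and Lingo1 in 7, not without sham library 2 or 3 or BCP library 1 or 2 (adjusted p up to 0.241). Without sham library 3, 3 of the 10 receptors were lower. Gfra2, a co-receptor of the GDNF family, had a log2FC of -0.14 (adjusted p = 0.244). Of 7 other listed growth factors 4 were tested and none passed, with adjusted p from 0.428 (Artn) to 0.868 (Manf). Among those tested, only Artn and Pspn are ligands of the GDNF family, with at most 16 counts in a library.

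**Figure D3:**
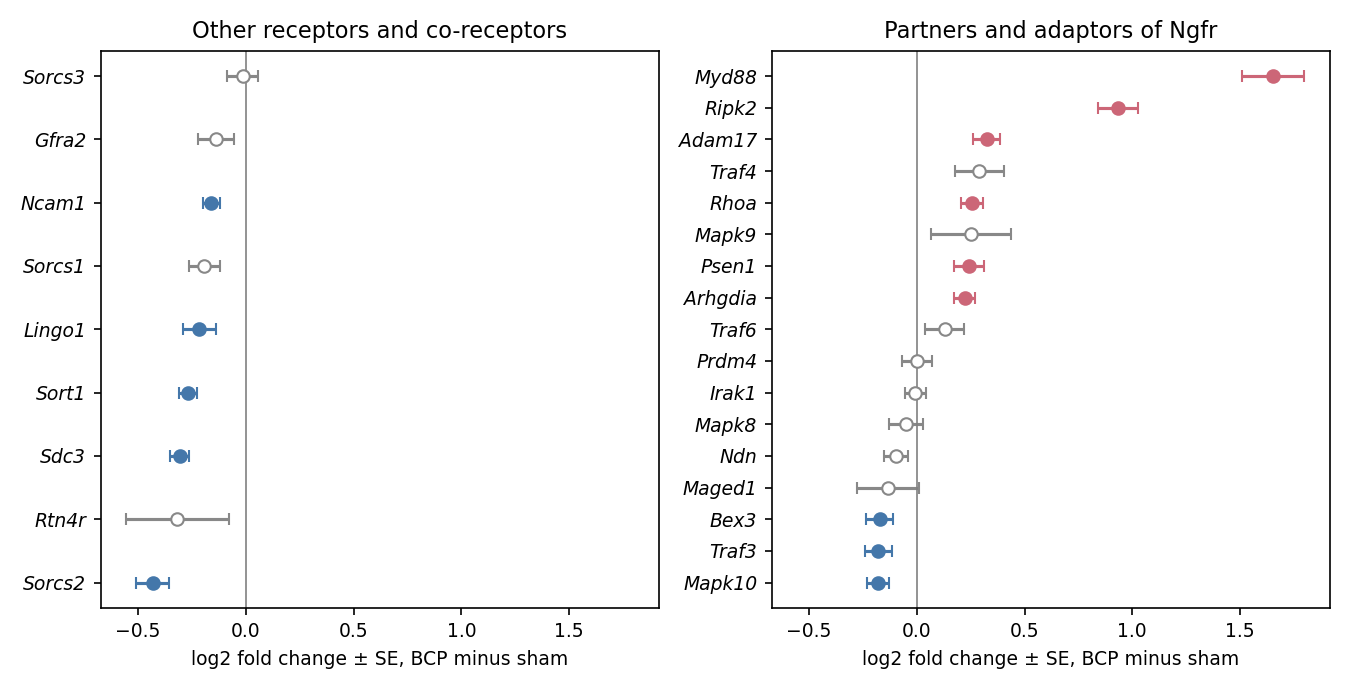
Log2 fold change of BCP over sham with its standard error (horizontal axis) for 9 of the 10 tested other receptors and co-receptors (left) and the tested partners and adaptors of Ngfr (right). Filled points passed an adjusted p of 0.05, red higher and blue lower in BCP, and open gray points did not. All filled points on the left are below 0, and on the right 6 are above 0 and 3 below, with Myd88 and Ripk2 farthest to the right.

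Among the 17 tested partners and adaptors of p75, 6 rose and 3 fell, against 15.8% and 12.1% of all tested genes, and the median log2FC was 0.13. Myd88, an adaptor that is better known from Toll-like receptors, rose from 5.34 ± 0.496 to 16.8 ± 1.80 CPM (SD, n = 3, log2FC 1.65, adjusted p = 2.88e-08). It was the only one over 2-fold. Ripk2, a kinase recruited to p75 and to NOD receptors, rose with a log2FC of 0.93 (adjusted p = 1.50e-07). Adam17, a protease that cleaves p75, rose with 0.32 (adjusted p = 0.000441), and the GTPase gene Rhoa with 0.26 (adjusted p = 0.000593). Mapk10, the neuronal Jun kinase, and Traf3 both fell with a log2FC of -0.18 (adjusted p = 0.0121 and 0.034), and Bex3 with -0.17 (adjusted p = 0.0462). These calls of lower levels were less stable than those of Myd88, Ripk2, Adam17 and Rhoa, which passed in all 15 settings. Bex3 passed in 2 of them and in no fit with a library left out (adjusted p up to 0.150), Traf3 in 9, not without sham library 2 or BCP library 1 or 2 (up to 0.261), and Mapk10 in 13, not without BCP library 3 (up to 0.123). Without sham library 2 or BCP library 1, 2 or 3, only 1 of the 17 genes fell.

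The adaptors that carry Trk and Ret signals mostly did not pass the test. Of 40 tested genes 31 did not, 7 fell and 2 rose, against 12.1% and 15.8% of all tested genes, and the median log2FC was -0.05. Only 1 rose without sham library 1 or 3 or BCP library 2 or 3. One of the 2 that rose was Grb2, which passed in 7 of 15 settings and whose name stands on 2 rows, only the first being counted. Shc1, an adaptor of many receptor kinases that is not confined to neurons, rose from 29.6 ± 4.49 to 62.4 ± 6.51 CPM (SD, n = 3, log2FC 1.08, adjusted p = 6.21e-06). The neuronal relatives Shc2 and Shc3 fell with a log2FC of -0.27 and -0.25 (adjusted p = 0.0234 and 0.0114). Gab1, which encodes a docking protein, fell from 132 ± 4.15 to 110.0 ± 5.88 CPM (adjusted p = 0.000808), and the phosphatase gene Ptpn11 fell with a log2FC of -0.15 (adjusted p = 0.00837). Shc1 and Gab1 passed in all 15 settings, and Shc2 in 8, not without sham library 2 or 3 or BCP library 2 or 3 (adjusted p up to 0.104), and Shc3 was lost without sham library 3 or BCP library 2 (up to 0.0779). The adaptors that fell numbered 3 without sham library 3, 2 without BCP library 2 and 10 with upper-quartile scaling.

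Of 11 tested genes that process pro-neurotrophins 2 rose and 3 fell, against 15.8% and 12.1% of all tested genes, and the median log2FC was -0.06. Furin, a convertase that cleaves pro-neurotrophins, rose from 49.5 ± 0.828 to 60.3 ± 0.828 CPM (SD, n = 3, log2FC 0.29, adjusted p = 0.00197). The convertase genes Pcsk6 and Pcsk2 fell with log2FC of -0.28 and -0.17 (adjusted p = 0.002 and 0.0212). Pcsk2 was lost without sham library 3 or BCP library 2 or 3 (adjusted p up to 0.169), and in each of these fits 1 processing gene was lower.

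Markers of the cells that carry these receptors were compared in the same fit, and several lists had members that fell. Of all tested genes 12.1% fell and 15.8% rose at the same threshold. Of 15 tested neuron markers 9 fell and none rose, and their summed level was 12560 to 12898 CPM in sham against 10767 to 11831 CPM in BCP. Of 7 motor neuron markers 3 fell (851 to 998 against 673 to 814 CPM), and all 11 oligodendrocyte markers fell (41026 to 46506 against 29632 to 32936 CPM). Of 12 astrocyte markers 7 fell and Gfap rose, and their sum was 9273 to 9554 against 9929 to 12153 CPM. Within that sum Gfap went from 2339 CPM on average in sham to 4075 CPM in BCP, and Aqp4 had a single value of 28568 counts in BCP library 1. Over the settings tried, 4 to 9 neuron, 2 to 4 motor neuron, 4 to 7 astrocyte and 9 to 11 oligodendrocyte markers fell. The lowest neuron count came with limma on FPKM, and 6 fell without sham library 2 or BCP library 3. The part of these cell types in the lower Ntrk2 and Ntrk3 values was not tested.

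Ngfr is also known from Schwann cells, primary afferent neurons and perivascular fibroblasts. For the counts that follow, 15.8% of all tested genes rose and 12.1% fell. Of 9 tested markers of Schwann cells and nerve roots 1 rose and 1 fell, close to these shares. Their sum was 359 to 365 CPM in sham against 299.8 to 325 CPM in BCP. The one that rose was Egr2, which did not pass with DESeq2 or without sham library 2 or 3 or BCP library 2 or 3, and 2 of the 9 fell without sham library 1 or BCP library 1. Of 7 dorsal root ganglion markers 3 fell (222 to 247 against 166 to 201 CPM), and Mrgprd had no count. Isl1 and Prph stand in this list and in the motor neuron list, so the lists are not separate results. Scn10a, Scn11a, Mrgprd and Tlx3 were too rare to be tested. Of 9 markers of meninges and fibroblasts 1 rose and 1 fell (552 to 566 against 582 to 645 CPM), close to the shares of all tested genes. Col1a2 was listed at 0 in every library. Of 14 microglia markers 11 rose (336 to 450 against 1149 to 1405 CPM), and all 8 tested T cell markers rose (1.15 to 1.98 against 31.9 to 46.6 CPM). Oligodendrocyte precursors had 1 of 8 markers higher and 2 lower (1153 to 1228 against 1162 to 1289 CPM), and endothelial cells and pericytes had 1 of 10 lower (580 to 597 against 569 to 630 CPM). The part of any of these cell types in the higher Ngfr value was not tested.

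The lncRNA table listed 12 transcripts within 10 kb of the 8 genes, 9 of which overlapped the span of a gene. They lay at Ntrk2 (5), Ntrk3 (4), Gdnf, Gfra1 and Ret (1 each), and 8 of them had enough counts to be tested. None had an adjusted p under 0.05 by edgeR's quasi-likelihood test or by DESeq2, and 1 had an unadjusted p under 0.05. By the former test 1.97% of all 12157 tested lncRNAs passed, 1.57% higher and 0.395% lower, and 1.22% also changed over 2-fold, 1.14% higher and 0.0740% lower. The libraries of the groups did not overlap for 2 of the 8, against 20.7% of all tested lncRNAs. Both lay inside the span of Ntrk3, with opposite signs. NONRATT002781.2, the one with an unadjusted p under 0.05 (chromosome 1, 139990259 to 139991853), had counts of 378, 447 and 525 in sham against 295, 361 and 354 in BCP. Its log2FC of -0.27 (adjusted p = 0.276) had the sign of the change in Ntrk3, and its BCP libraries, after scaling, lay below all sham libraries. NONRATT002783.2 (chromosome 1, 140261270 to 140262203) had counts of 12, 16 and 8 in sham against 15, 20 and 21 in BCP, and its log2FC of 0.77 (adjusted p = 0.401) had the opposite sign. After scaling its BCP libraries lay above all sham libraries. NONRATT012745.2 and NONRATT012746.2, within 3 kb beyond the lower end of Ntrk2 on chromosome 17, had log2FC of -0.25 and -0.21 (adjusted p = 0.529 and 0.539). The sources used here do not say whether counting used strand, so reads of a gene and of an overlapping transcript may not have been told apart.

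The genes whose log2 CPM followed the 3 changed receptors most closely over the 6 libraries were named from all tested genes. For Ntrk2 these were Atp1b2, the beta-2 subunit of the sodium pump (Pearson's r = 0.996), Lztr1 (0.995) and Itfg1 (0.992). For Ntrk3 they were Hhatl (0.997), LOC689991 (0.996) and RGD1561381 (0.996), and for Ngfr they were Exosc9 (0.990), Usp8 (0.988) and Fgfr1op2 (0.987). These values describe 6 points that share the difference between the groups, picked as the highest among all tested genes, and carry no test.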

How the data were processed

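Per the labels and the study's methods, the authors' pipeline used Rnor_6.0 as the genome, HISAT2 2.0.4 as the aligner, StringTie 1.3.0 for FPKM and Seqtk to filter reads. They deposited raw counts and FPKM of each gene and lncRNA transcript. The counter and its use of strand are not given in the sources used here. Columns were assigned to libraries by the names in the labels. The test was edgeR 4.0.16 under R 4.3.3 (TMM, filter by expression, robust quasi-likelihood fit on the condition, Benjamini-Hochberg adjustment), for genes and lncRNAs separately. Alternatives used DESeq2 1.42.0, limma 3.58.1 on log2(FPKM + 1), other scalings and filters, the replicate number as a block, and each library left out. The code was tested on simulated data. Ratios used an exact permutation test. Named were the 8 genes, up to 4 genes per list and direction that passed, with the smallest p first, lncRNAs within 10 kb, and the 3 genes most like each changed gene. A few genes outside this rule (Fos, Egr1, Gfra2, Artn, Manf, Lingo1, Shc2, Gfap, Aqp4) were named after their values were seen. Pspn, Isl1, Prph, Scn10a, Scn11a and Tlx3 were named as list members, also afterwards. The members and lists were chosen with earlier results of these data known. Of 111 listed pathway genes 108 were found by name, Bex3 as Ngfrap1 through RefSeq synonyms, and 97 were tested. Grb2 names 2 rows, of which the first was counted in its list. Some genes that were counted in the lists are not reported here by name. Depth per library was 11779485 to 15004290 counts on genes.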

Additional observations from a re-analysis of the deposited data

How the results depend on the processing

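The lower Ntrk2 value passed under all 14 alternatives, with log2FC from -0.25 to -0.17, and that of Ntrk3 under 13. The exception was limma on log2(FPKM + 1) (log2FC -0.18, adjusted p = 0.0588). Ngfr passed under 7 of 14. It did not pass with DESeq2 (0.58, adjusted p = 0.0706), with limma on FPKM (0.40, 0.115) or when sham library 1 or 2 or BCP library 1 or 2 was left out, and its range over libraries left out was 0.48 to 0.79. Ret passed under 4, with DESeq2's size factors (0.13, adjusted p = 0.0494), library size only (0.17, 0.0115), at least 10 counts in every library (0.13, 0.0486) and without BCP library 3 (0.16, 0.0424), and ranged from 0.10 to 0.16 over libraries left out. Gfra1 was -0.0094 with upper-quartile scaling and -0.021 to 0.083 over libraries left out, below 0 without sham library 3, and Bdnf passed under none. The difference in log2 ratio of Ntrk2 to Ntrk3 ranged from -0.045 to 0.047 over libraries left out. The cause was not tested in any of these.

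Scaling moved the median log2FC of all genes from -0.05 (upper quartile) to 0.03 (library size only). The median of the activity-induced list was above 0 with library size only (0.04), and that of the Schwann cell list too (0.01). The genes higher and lower were 2352 and 1805 with TMM, 2134 and 2401 with upper-quartile scaling, and 2673 and 1257 with library size only. With limma on FPKM 843 genes were lower. Genes over 2-fold lower numbered 16, and 37 with no filter, 6 with at least 10 counts in every library, 3 with limma on FPKM, 0 in a test against a fold change of 2, and 16 to 33 over libraries left out. Genes over 2-fold higher numbered 946 and in the test against a fold change of 2 548. lncRNAs over 2-fold higher numbered 139 and over libraries left out 47 to 112, those lower 9, 21 with DESeq2 and 8 to 18 over libraries left out. NONRATT002782.2 near Ntrk3 (log2FC 0.15) ranged from -0.033 to 0.29 over libraries left out.

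Replicate numbers are shared by the groups, but same-numbered libraries did not deviate together (r = -0.110, 0.0543 and -0.0353 for numbers 1, 2 and 3). With the replicate number as a block Ngfr had a log2FC of 0.58 and an adjusted p of 0.0676, and lncRNAs over 2-fold higher numbered 43. For the other tested genes of the 8 the block changed no call. Depth limits Bdnf, Ngfr, Ntf3 and Gdnf, which had at most 110 counts in a library.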

Other observations

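Among receptors of the GDNF family that were too rare to be tested, Gfra3, the artemin co-receptor, was read 2, 1 and 0 times in sham against 3, 13 and 5 times in BCP, and Gfral, the GDF15 receptor, had 6, 2 and 19 counts against 0, 4 and 0. A few astrocyte genes had a single library far from the rest of its group. Aqp4 had 28568 counts in BCP library 1 and 4637 to 5427 in the other 5 libraries, and Slc1a3, a glutamate transporter, had 1286 counts in sham library 1 and 3593 to 4282 in the others. No such library was found for the abundant receptors, whose highest CPM was 1.24 (Ntrk2), 1.28 (Ntrk3), 1.15 (Gfra1) and 1.18 (Ret) times the lowest.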
